A study of Mus musculus with 12 samples.

Results

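The nuclear factor I family is described here in the developing hand and foot (the autopods) of wild-type mice at stage E12.5. Its members were its 4 genes, of 18194 named on the arrays, through every probe set that the platform annotation gives to exactly 1 of Nfia, Nfib, Nfic and Nfix. There were 23 such probe sets among 45265 in all, 16 of 22690 on the A design of the Affymetrix MOE430 GeneChip set and 7 of 22575 on the B design. Of these, Nfia had 3 on each design, Nfib 4 (A) and 3 (B), Nfic 4 (A) and 1 (B), and Nfix 5, all on A. RNA came from 3 forelimb samples (11, 13 and 25) and 3 hindlimb samples (12, 14 and 26), all wild type, untreated as far as the labels say and of the same stage, and each sample was hybridised to both designs. The family was selected on the limb differences of these same arrays, in which an Nfix probe set was among the few that passed the threshold between the limbs. The limb differences of its members are therefore given as a description, and the adjusted p-values state only where a probe set lay relative to that threshold.

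Nuclear factor I proteins are DNA-binding transcription factors that bind as dimers, through a conserved amino-terminal domain, to a palindrome built of the half-site TTGGC and its reverse complement. The family members can form dimers with each other, and each can activate or repress. In mice, Nfia and Nfib are known for roles in the brain, Nfib also in the lung, Nfic in tooth roots, and Nfix in the brain, skeleton and fetal muscle. The limb autopod of this stage holds mesenchyme that condenses into the skeleton, with connective tissue, muscle progenitors, surface ectoderm, vessels and blood cells.

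The family's recognition half-site was looked up in the RefSeq start-site windows of the genes themselves, each running from 250 bases before to 50 bases after an annotated transcript start (build GRCm38.p6). The table held 1 window for Nfia, 1 for Nfic and 4 for Nfix. The full palindrome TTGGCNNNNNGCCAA lay in 0 of these 6 windows and in 0.0365% of all 32851 windows. The half-site TTGGC, read on both strands, so also as GCCAA, lay in 3 of the 4 Nfix windows and in neither the Nfia nor the Nfic window, where 46.7% of all windows hold it. Each half-site is part of the palindrome, so a window with the palindrome would be counted under both. The 2 Nfix windows that lie nearest to each other are shown to let the half-sites be read in place. They lie on the minus strand of chromosome 8, and capitals mark the half-sites.
Nfix, chr8:84773361-84773660, minus strand: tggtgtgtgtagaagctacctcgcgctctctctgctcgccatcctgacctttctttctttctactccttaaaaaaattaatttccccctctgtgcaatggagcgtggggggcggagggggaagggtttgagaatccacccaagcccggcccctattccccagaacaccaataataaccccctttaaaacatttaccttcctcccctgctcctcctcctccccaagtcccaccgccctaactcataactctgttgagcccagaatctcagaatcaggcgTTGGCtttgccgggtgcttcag
Nfix, chr8:84772826-84773125, minus strand: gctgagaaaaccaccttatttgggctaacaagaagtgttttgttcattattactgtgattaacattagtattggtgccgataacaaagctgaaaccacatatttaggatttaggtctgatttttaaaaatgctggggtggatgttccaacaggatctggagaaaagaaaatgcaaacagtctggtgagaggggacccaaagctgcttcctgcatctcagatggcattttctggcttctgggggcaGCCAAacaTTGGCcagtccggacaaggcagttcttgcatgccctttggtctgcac
The first window carries 1 half-site near its 3′ end, and the second carries 2, in opposite orientation. The arrays do not say which start was used, and a match of letters is not a bound site.

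The labelled tissue could be checked against defining genes. Tbx5, the forelimb T-box factor, ranged from 1145 to 1381 in forelimb, while in hindlimb it ranged from 29.3 to 174. The labels leave the limb of forelimb 11 on the A array to its title alone, and its Tbx5 signal was above that of every hindlimb sample. Pitx1, a homeobox factor of the hindlimb, lay at 99.0 to 160 in forelimb, and at 478 to 678 in hindlimb. The limb mesenchyme factor Prrx1 was at 3118 to 3202 in forelimb and at 2855 to 3189 in hindlimb. Signals are MAS5.0 intensities per probe set, brought here to a trimmed mean of 500 on every array. They are compared between samples. A level on one probe set is not read against that on another, and brightness served only to pick 1 probe set per gene or array. A probe set was tested when 3 or more of the 6 arrays of its design gave it a signal of 100 or above, which 15338 probe sets of the A design and 17145 of the B design met. Nothing in the labels says whether the samples were separate embryos or pools, so errors and p-values cover only the spread between these samples.

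Of the 23 family probe sets, 16 were tested, 9 from the A design and 7 from the B design. All 16 reached a signal of 100 on each of the 6 arrays of their design, so none of them entered through 1 limb only. The other 7, all on the A array, are described after the tested ones. Of the 16, 15 had a lower mean in hindlimb than in forelimb, 8 of 9 for the A design and 7 of 7 for the B design, where 52.2% of all tested probe sets of each design lay below 0. Differences are hindlimb minus forelimb in log2(signal + 32). Their median over the family was -0.69 for the A design and -0.25 for the B design, against -0.009 and -0.014 over all tested probe sets. The forelimb and hindlimb samples did not overlap, with hindlimb below, on 4 of 9 family probe sets of the A array (background 6.10%) and on 3 of 7 of the B array (background 6.14%). By limma with Benjamini-Hochberg adjustment, 1 of 9 family probe sets passed an adjusted p of 0.05 on the A array (background 0.0326%), and 0 of 7 passed on the B array (background 0.0117%). At an unadjusted p under 0.05 there were 6 of 9 and 2 of 7 (background 5.54% on each array). The 1 probe set past the threshold belongs to Nfix and was known when the family was chosen, so nothing is read from its excess over the background. Probe sets of one gene were read in the same samples and are not replicates of one another.

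**Figure D1:**
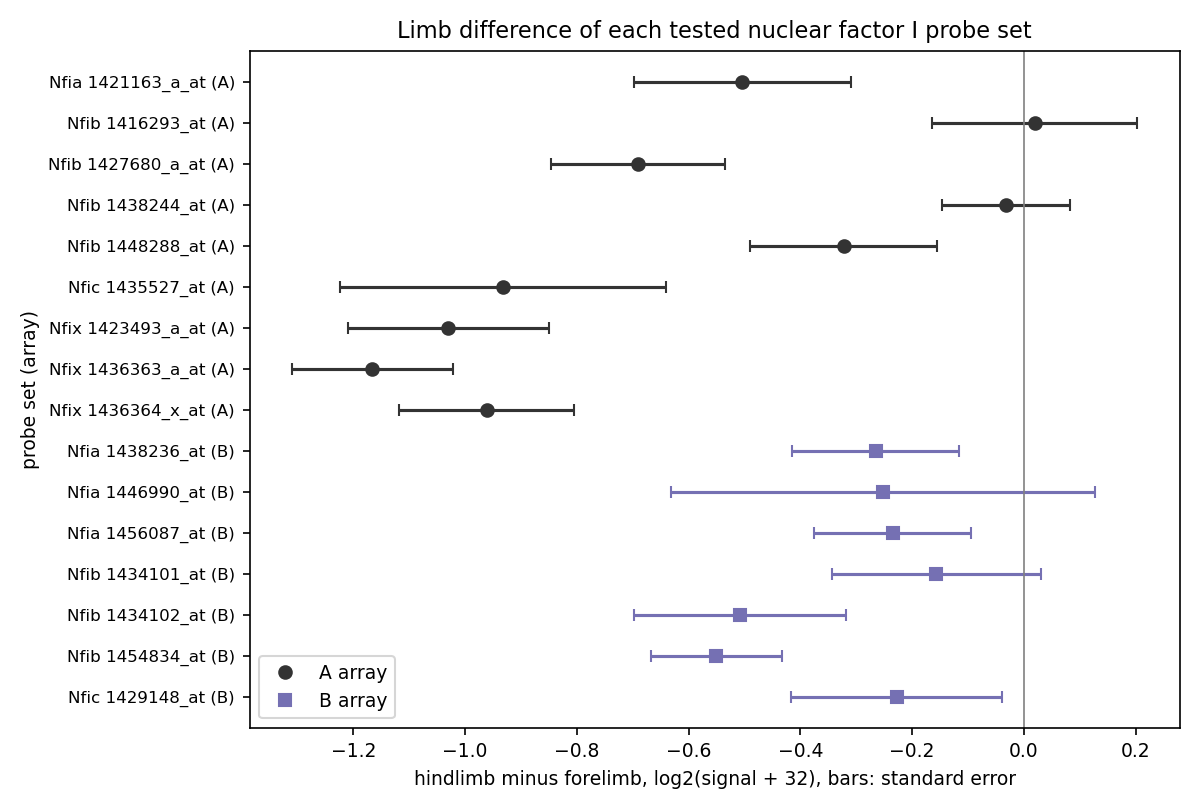
Hindlimb minus forelimb difference of the 16 tested nuclear factor I probe sets, in units of log2(signal + 32); points are limma estimates from 3 samples per limb, bars their standard errors, circles the A array and squares the B array. The 3 Nfix values lie between -1.17 and -0.96, the Nfib values between -0.69 and 0.02, and the Nfia values between -0.50 and -0.24.

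Nfix, the member known for fetal muscle, brain and skeleton, was the one gene whose tested probe sets all parted the limbs. On 1436363_a_at, the probe set past the threshold, the forelimb signals were 1084 in sample 11, 1225 in sample 13 and 985 in sample 25. The hindlimb signals were 505 in sample 12, 513 in sample 14 and 400 in sample 26. Every hindlimb sample was below every forelimb sample, and the hindlimb mean of 473 ± 63.2 (SD, n = 3) was 43.0% of the forelimb mean of 1098 ± 120 (SD, n = 3). The difference was -1.17 ± 0.14 (SE; limma adjusted p = 0.0211), rank 5 among all tested probe sets by p. The probe set just above it in that order was a Pitx1 probe set (adjusted p = 0.0193) and the one just below, past the threshold no more, was a Tbx4 probe set (adjusted p = 0.0514).

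A pair of further Nfix probe sets also parted the limbs without passing the threshold. On 1436364_x_at the forelimb signals were 541, 681 and 604 in samples 11, 13 and 25. The hindlimb signals were 292, 353 and 250 in samples 12, 14 and 26. No sample crossed over, with a difference of -0.96 ± 0.16 (SE) and an adjusted p of 0.104 in limma. This probe set was designed from the same source sequence as 1436363_a_at, and its suffix marks probes that may also bind other transcripts, so the pair is not 2 independent readings. On 1423493_a_at, whose source sequence is not given in the table, the forelimb signals were 437, 583 and 566 in the same order. The hindlimb signals were 272, 278 and 183. Again no hindlimb sample reached a forelimb sample, with a difference of -1.03 ± 0.18 (SE; limma adjusted p = 0.147).

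The 3 Nfix probe sets ordered the hindlimb samples alike, and the forelimb samples in part. Forelimb 13 was the highest forelimb sample on 3 of 3, hindlimb 14 the highest hindlimb sample on 3 of 3, and hindlimb 26 the lowest on 3 of 3. The lowest forelimb sample was 25 on 1436363_a_at and 11 on the other 2. Set against one another within each array, the log2 ratio of 1436364_x_at to 1436363_a_at ran from -0.96 to -0.68 in forelimb and from -0.73 to -0.50 in hindlimb. The ratio of 1423493_a_at to 1436363_a_at ran from -1.25 to -0.77 in forelimb and from -1 to -0.81 in hindlimb. The limbs overlapped in both ratios. The adjusted p of 1436363_a_at passed with hindlimb 12 left out and was lost on leaving out any of the other 5 samples (limma adjusted p = 0.0515 to 0.15), with no signal filter (0.12) or without the trend in the variance prior (0.0648). Its difference ranged from -1.24 to -1.06 over all 15 alternative settings.

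**Figure D2:**
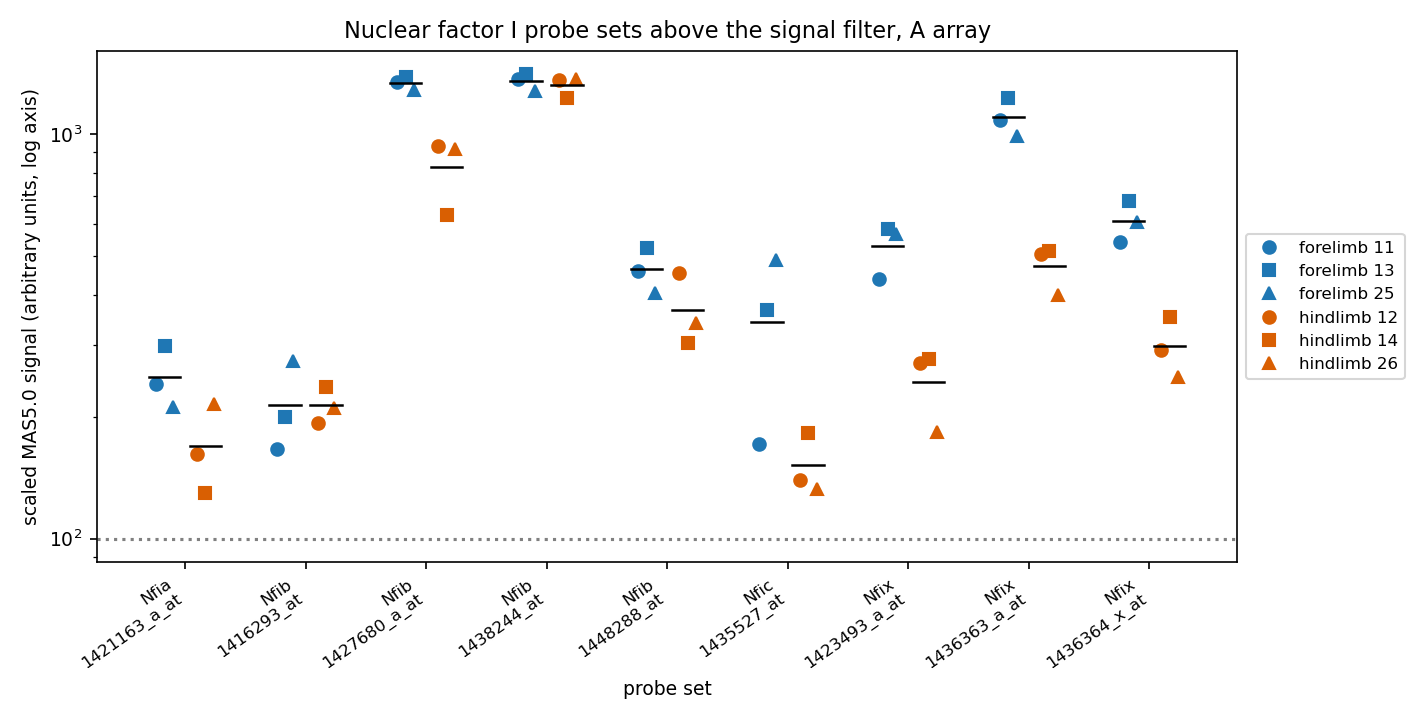
Scaled MAS5.0 signal (log axis, arbitrary units) of the 9 tested nuclear factor I probe sets of the A array in each of the 3 forelimb (blue) and 3 hindlimb (orange) samples; symbols stand for samples, black bars for limb means and the dotted line for the signal filter of 100. The limbs are apart on the 3 Nfix probe sets and on Nfib 1427680_a_at, and they overlap on the other 5.

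Nfib, the member known for lung maturation and brain development, was read by 7 tested probe sets, and these did not give one answer. On 1427680_a_at of the A array the forelimb signals were 1339, 1380 and 1280 in samples 11, 13 and 25. The hindlimb signals were 932, 631 and 915 in samples 12, 14 and 26. All hindlimb samples were below all forelimb samples, and the hindlimb mean was 62.0% of the forelimb mean (difference -0.69 ± 0.16, SE; limma adjusted p = 0.376). On 1438244_at of the same array the forelimb signals were 1365, 1405 and 1276. Its hindlimb signals were 1360, 1228 and 1369, so the limbs overlapped almost fully, with a difference of -0.03 ± 0.11 (SE). The sign of that difference turned with array weights or without hindlimb 14.

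The contrast between these Nfib probe sets can be read within each array, where sample loading is shared. The log2 ratio of 1427680_a_at to 1438244_at was -0.03, -0.02 and 0.01 in forelimb samples 11, 13 and 25. It was -0.53, -0.93 and -0.56 in hindlimb samples 12, 14 and 26. The ratio was thus 0.66 lower in hindlimb on average on the log2 scale, with no overlap, which shows that the 2 probe sets changed unequally. Absolute ratios between probe sets carry no meaning, as each has its own response. Nfib transcripts are spliced in several forms, but which transcripts these probe sets bind was not tested.

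**Figure D3:**
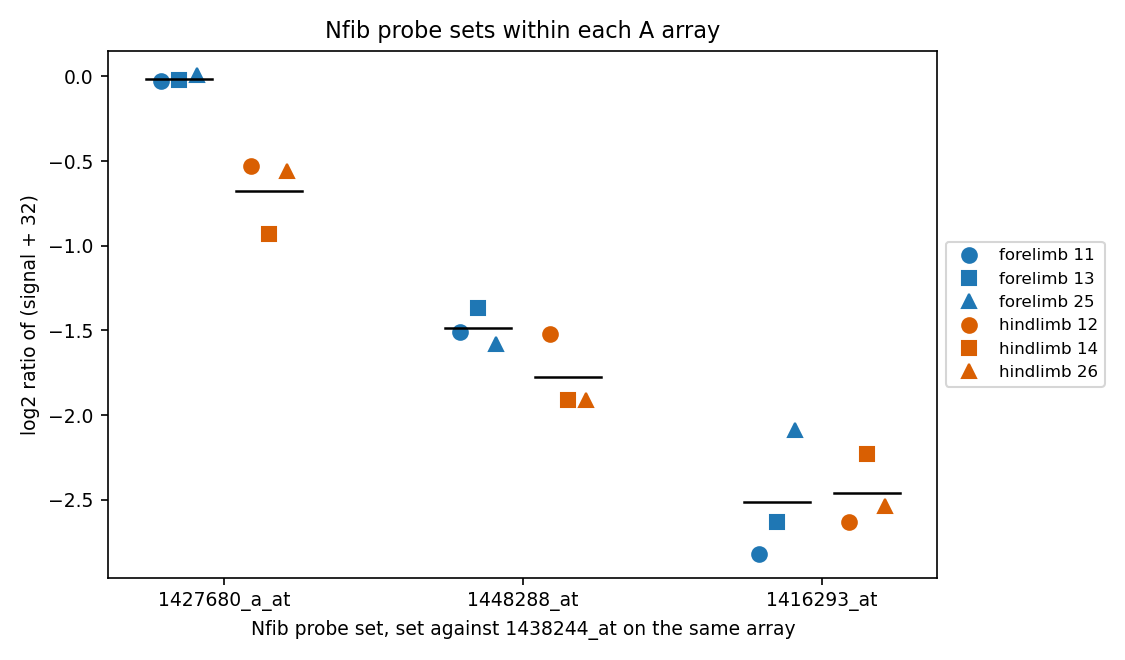
Log2 ratio of the (signal + 32) of 3 Nfib probe sets to that of Nfib 1438244_at on the same A array, for each of the 3 forelimb (blue) and 3 hindlimb (orange) samples; black bars are limb means. For 1427680_a_at the forelimb samples lie between -0.03 and 0.01 and the hindlimb samples between -0.93 and -0.53, while for the other 2 probe sets the limbs overlap.

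The remaining Nfib probe sets of the A array overlapped between the limbs. On 1448288_at the forelimb signals were 458, 524 and 405, and the hindlimb signals 454, 304 and 341. Hindlimb 12 lay among the forelimb samples, and the difference was -0.32 ± 0.17 (SE), or -0.21 without hindlimb 14. Its partner from the same source sequence, 1416293_at, had 166, 200 and 275 in forelimb. In hindlimb it had 194, 237 and 210, with full overlap and a difference of 0.02 ± 0.18 (SE), the only positive one among the 16. Its sign turned in 4 of the 15 alternative settings.

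On the B array 3 Nfib probe sets were designed from one source sequence. Of these, 1454834_at had forelimb signals of 2583, 2780 and 2429 in samples 11, 13 and 25. Its hindlimb signals of 1728, 1804 and 1750 were close together and all below the forelimb. The hindlimb mean was 67.8% of the forelimb mean, with a difference of -0.55 ± 0.12 (SE; limma adjusted p = 0.536), the smallest p of the family on that array and 21st among all its tested probe sets. On 1434102_at the forelimb signals were 1173, 1121 and 1073, and the hindlimb signals 1024, 593 and 776. The limbs were apart, by a narrow margin at hindlimb 12 (-0.51 ± 0.19, SE). Without hindlimb 14 the difference was -0.32, and without hindlimb 12 it was -0.70. On 1434101_at they overlapped, with 847, 723 and 710 in forelimb against 820, 525 and 718 in hindlimb (-0.16 ± 0.19, SE). The last difference turned to 0.02 without hindlimb 14, and it was -0.08 without forelimb 11 and -0.29 without hindlimb 12. Hindlimb 14 was the lowest hindlimb sample on 5 of the 7 Nfib probe sets, but the highest on 1454834_at and 1416293_at.

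**Figure D4:**
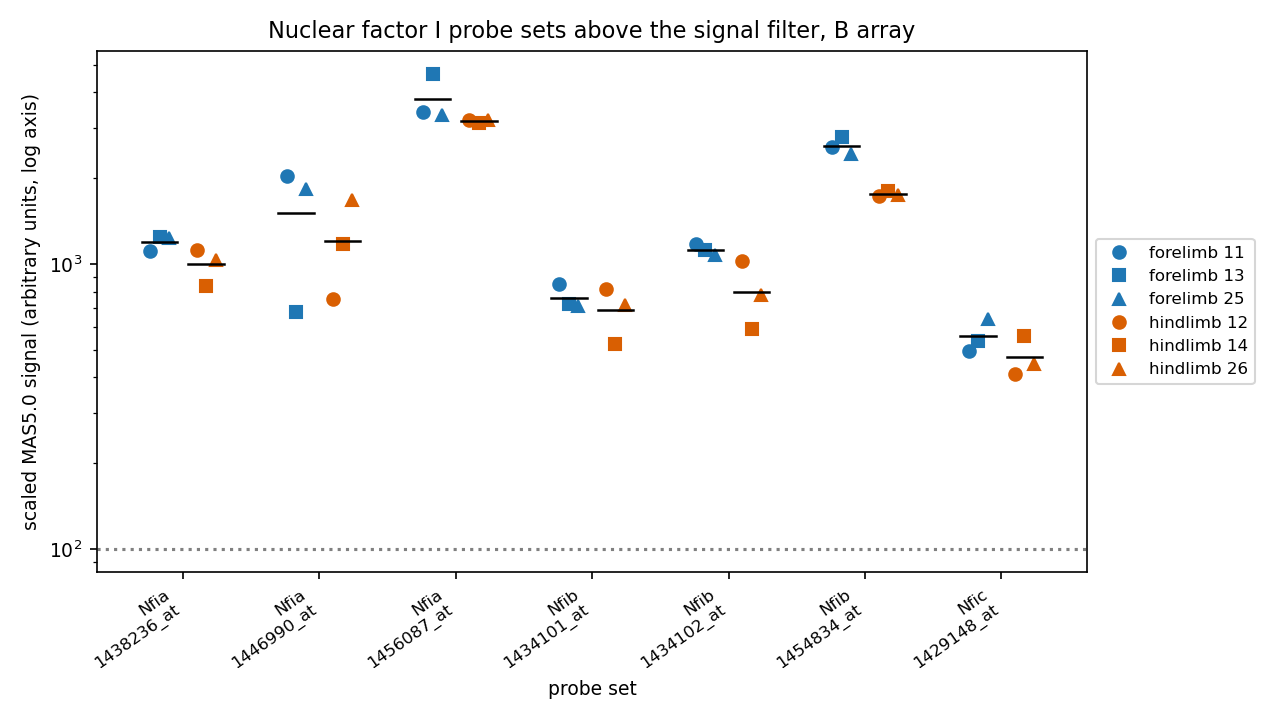
Scaled MAS5.0 signal (log axis, arbitrary units) of the 7 nuclear factor I probe sets of the B array in each of the 3 forelimb (blue) and 3 hindlimb (orange) samples; symbols stand for samples, black bars for limb means and the dotted line for the signal filter of 100. Hindlimb lies below forelimb without overlap on Nfia 1456087_at and on Nfib 1434102_at and 1454834_at.

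Nfia, the member known for gliogenesis, was represented by 1 tested probe set of the A design and 3 of the B design. On 1421163_a_at of the A array the forelimb signals were 242, 300 and 212 in samples 11, 13 and 25. The hindlimb signals were 162, 130 and 215 in samples 12, 14 and 26. Hindlimb 26 reached above forelimb 25, so the limbs overlapped, and the difference was -0.50 ± 0.19 (SE). On 1456087_at of the B array the forelimb samples had 3405, 4627 and 3331. The hindlimb samples had 3205, 3133 and 3192 and lay just below them, with a difference of -0.24 ± 0.14 (SE), or -0.08 without forelimb 13. On 1438236_at the signals were 1114, 1245 and 1231 in forelimb and 1115, 838 and 1034 in hindlimb. Forelimb 11 and hindlimb 12 were alike there, and the difference was -0.27 ± 0.15 (SE), or -0.15 without hindlimb 14.

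The third Nfia probe set of the B array, 1446990_at, scattered widely. Its forelimb signals were 2028, 677 and 1832 and its hindlimb signals 751, 1175 and 1674. Samples of 1 limb differed by more than the limb means did (1512 in forelimb and 1200 in hindlimb). Forelimb 13, the highest sample on the other 3 Nfia probe sets, was the lowest here. Its difference of -0.25 ± 0.38 (SE) turned positive without forelimb 11 (0.03) or without hindlimb 12 (0.04), and it was -0.74 without forelimb 13. None of the 4 Nfia probe sets passed in limma, with adjusted p of 0.779 to 0.957, and 1 of them had an unadjusted p under 0.05.

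Nfic, the member known for tooth root formation, had 1 tested probe set on each array. On 1435527_at of the A array the forelimb signals were 171, 367 and 489 in samples 11, 13 and 25. The hindlimb signals were 140, 183 and 133 in samples 12, 14 and 26. The hindlimb mean was 44.3% of the forelimb mean, close to the share seen for Nfix, but forelimb 11 lay below hindlimb 14. The difference of -0.93 ± 0.29 (SE; limma adjusted p = 0.633) carried the largest error of the family on that array. It was -1.32 without forelimb 11 and -0.64 without forelimb 25. On 1429148_at of the B array the signals were 494, 539 and 640 in forelimb, then 411, 560 and 447 in hindlimb. The order of the forelimb samples was the same as on the A array, with 11 lowest and 25 highest, and hindlimb 14 was again the highest hindlimb sample. The limbs overlapped, with a difference of -0.23 ± 0.19 (SE). It was -0.13 without forelimb 25, -0.14 without hindlimb 12 and -0.35 without hindlimb 14.

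The 7 untested probe sets were dim in both limbs and are given by their ranges. For Nfix, 1451443_at had 3.0 to 7.4 over all 6 arrays, near the bottom of the scale, and 1459909_at had 46.4 to 116 in forelimb and 22.0 to 71.7 in hindlimb. For Nfic, 1422565_s_at had 61.0 to 88.3 in forelimb and 36.6 to 58.7 in hindlimb. Hindlimb was below forelimb without overlap there, on a probe set whose suffix marks probes shared between related transcripts. The other Nfic probe sets, 1427665_a_at (26 to 53.6) and 1450661_x_at (27.1 to 100), overlapped between the limbs. For Nfia, 1421162_a_at had 8.9 to 31.0 and 1427733_a_at had 62.3 to 114, also with overlap. The dim probe sets of Nfix and Nfic stand beside others of the same genes that reached the filter on all 6 arrays. Differences at this level are compressed by the pseudocount, and none is given.

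**Figure D5:**
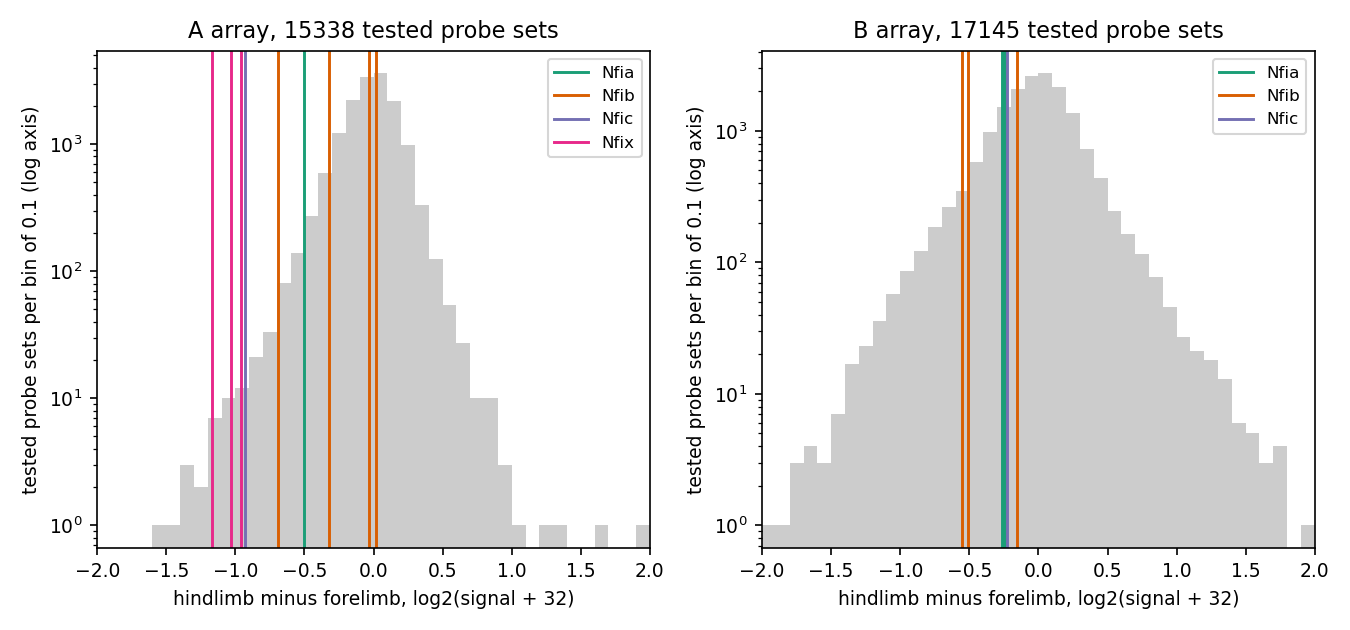
Number of tested probe sets (log axis) by hindlimb minus forelimb difference in log2(signal + 32), in grey, for the A array (15338 probe sets) and the B array (17145), with coloured lines at the nuclear factor I probe sets; 2 probe sets of the A array and 3 of the B array lie beyond the plotted range. On the A array the 3 Nfix lines and the Nfic line stand in the thin left tail, and on the B array the family lies between -0.55 and -0.16.

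Genes whose signals followed Nfix most closely over the 6 A arrays were named by Pearson's r to 1436363_a_at, as a description. Outside the family these were Sorcs3, a sorting receptor (r = 0.996), Fhod3, a formin of actin filaments (0.996), Plbd1 (0.99), Dcx, the microtubule protein doublecortin (0.984), and Fzd2, a Wnt receptor (0.984). Fzd2 ranged from 2193 to 2307 in forelimb, against 1831 to 1877 in hindlimb, so it followed the samples but with a difference of -0.28 only. Among the family, 1436364_x_at had r = 0.979, 1423493_a_at 0.961, Nfib 1427680_a_at 0.832 and Nfic 1435527_at 0.725. It was 0.238 for Nfib 1438244_at and -0.114 for Nfib 1416293_at, the 1 family probe set of the A array with a negative r. The signals most opposed to Nfix were those of Ino80c (r = -0.993), Cd302 (-0.991) and Psip1 (-0.986). All points share the 6 arrays and the limb contrast, and 46 named probe sets outside the family reached r of 0.95. The B array, which has no Nfix probe set, was searched with its brightest family probe set, Nfia 1456087_at. Fam178b (r = 0.985), Tns3 (0.977), Rbm24 (0.962), Nedd4l (0.96) and Gli3, a hedgehog pathway factor (0.958), came closest. In each of these, as in the Nfia probe set, forelimb 13 was the highest forelimb sample, with 16088 for Gli3 against 12679 and 12877 in the other forelimb samples. Ptprb, an endothelial receptor phosphatase (r = -0.991), Xkrx (-0.991) and Lypd9 (-0.99) were the most opposed. Within the family on the B array, r to Nfia 1456087_at was highest for Nfib 1454834_at (0.738). For the other Nfia probe sets it was 0.584 (1438236_at) and -0.515 (1446990_at). For Nfib 1434102_at, Nfic 1429148_at and Nfib 1434101_at it was 0.496, 0.215 and 0.166.

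Gene lists linked to the family in other tissues were set beside it, each gene by its brightest probe set. Factors of the NF-Y and C/EBP groups, which bind CCAAT sequences by other domains, had 5 tested genes on the A array, 3 lower and 2 higher in hindlimb (median -0.07). By limma 0 passed over all probe sets and 1 had an unadjusted p under 0.05. That one was Cebpa, with a difference of -0.63 ± 0.20 (SE; limma adjusted p = 0.647) and limbs that did not overlap. Nfya (-0.15) and Nfyc (0.10) had overlapping limbs. Of all named genes tested on the A array 0.0335% passed, and 5.84% had an unadjusted p under 0.05. On the B array these shares were 0.0257% and 5.87%. As background for the signs and medians of this and the following lists, the median over all named genes tested was -0.011 (A) and -0.002 (B). Their share below 0 was 53.0% (A) and 50.45% (B).

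Genes linked to nuclear factor I factors in glia and neural progenitors had 10 tested members on the A array, 6 lower and 4 higher (median -0.16), and 8 on the B array, 7 lower and 1 higher (median -0.14). By limma 0 passed on either array, and 2 (A) and 0 (B) had an unadjusted p under 0.05. Apcdd1, a membrane inhibitor of Wnt signalling, had -0.85 ± 0.16 (SE; limma adjusted p = 0.189) on the A array with limbs apart, and -0.34 ± 0.19 on the B array with overlap. Hes1, a Notch target, had -0.31 ± 0.13 with limbs apart, and Sox9, a chondrogenic factor, -0.31 ± 0.16 with overlap. On the B array Zcchc24 had -0.21 and Ncam1, an adhesion molecule, -0.19, both with overlapping limbs.

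Genes linked to Nfix in fetal muscle had 9 tested members on the A array, 6 lower and 3 higher (median -0.04), and 5 on the B array, 4 lower and 1 higher (median -0.13). By limma 0 passed on either array, and 1 and 0 had an unadjusted p under 0.05. Mef2c, a muscle transcription factor, had -0.58 ± 0.19 with overlapping limbs. Myog, the differentiation factor myogenin, had -0.30 ± 0.19. Its limbs were apart by a narrow margin, 163.5 in forelimb 25 against 162.5 in hindlimb 14. Rhoa, a small GTPase, had -0.17 ± 0.11 with overlap. On the B array Rhoa (-0.64 ± 0.55), Sox6 (-0.13 ± 0.11) and Myod1 (-0.40 ± 0.43) all overlapped.

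Genes linked to Nfic in tooth and bone had 8 tested members on the A array, 6 lower and 2 higher (median -0.14), and 4 on the B array, 3 lower and 1 higher (median -0.08). Hhip, a hedgehog-binding protein, passed on the B array (-1.73 ± 0.19, SE; limma adjusted p = 0.0214) and was the 1 member past the threshold. That call was known when the list was made, so the list is no independent evidence of a direction. On the A array 0 passed by limma and 3 had an unadjusted p under 0.05, namely Hhip (-1.34 ± 0.22), Col1a1, a fibrillar collagen chain (-0.83 ± 0.15), and Klf4 (-0.48 ± 0.17), each with limbs apart. Shh, the ligand that Hhip binds, had 1.02 ± 0.48 on the B array and Ptch1, its receptor, -0.13 ± 0.19, both with overlap. Cofactors and chromatin regulators linked to the family had 6 tested members on each array, of which 3 (A) and 4 (B) were lower (medians 0.006 and -0.02). By limma 0 passed on either, and 1 on the A array had an unadjusted p under 0.05, the corepressor Ski (-0.38 ± 0.15, with -0.17 ± 0.14 on the B array). Skil, its relative, had -0.30 ± 0.16 and Hdac1, a histone deacetylase, 0.09 ± 0.12. On the B array the acetyltransferases Ep300 and Crebbp had 0.36 ± 0.17 and -0.25 ± 0.16.

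Other measures of these samples moved with the limb contrast as well. Of all named genes tested, 6.85% (A) and 6.26% (B) had limbs apart with hindlimb lower. Hindlimb was higher with limbs apart for 5.44% and 5.60%. On the A array 2 of 3 tested tendon markers were lower in hindlimb with limbs apart, the collagen chain Col1a1 (848 to 915 against 405 to 596) and the matrix protein Tnc (178 to 415 against 98.4 to 146). The tendon regulator Scx (97.5 to 173 against 110 to 131) overlapped. So did the tendon gene Tnmd (47.8 to 103 against 57.8 to 73.4), which was too dim to be tested. The summed tendon signal was 1201 to 1539 in forelimb against 721 to 899 in hindlimb there, and on the B array it overlapped (2562 to 2936 against 2300 to 2967). Of 3 tendon markers tested on the B array 1 had limbs apart, Tnc again (178 to 286 against 39.3 to 145), while Mkx and Scx overlapped. Of 6 tested cartilage markers on the A array 3 were lower in hindlimb with limbs apart, the cartilage collagen Col2a1 (2597 to 3249 against 1373 to 2323), Matn4 (492 to 654 against 289 to 367) and Acan, the proteoglycan aggrecan (228 to 258 against 114 to 151). The summed signal of the 7 cartilage markers overlapped (8937 to 10170 against 7518 to 9725), with Col9a1, its largest term, at 3938 to 4838 against 4651 to 5963. Of 2 cartilage markers tested on the B array 0 had limbs apart.

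Among 5 tested muscle markers on the A array 1 had limbs apart, Myog by the narrow margin given above, and 0 had an unadjusted p under 0.05 in limma. The summed signal of all 8 muscle markers, with Pax3 and Myf5 under 100 on all A arrays, was 1374 to 1880 against 1077 to 1373. The limbs thus met almost at 1 value, and on the B array the muscle sum overlapped (149 to 295 against 104 to 180). Of the 7 surface ectoderm markers 3 were lower in hindlimb with limbs apart on the A array, the keratins Krt5, Krt14 and Krt15. The summed signal of all 7 ectoderm markers was 4091 to 5376 in forelimb there, against 3294 to 3958 in hindlimb. That total includes Epcam, Trp63, Perp and Cdh1, each of which overlapped between the limbs. The B design read only Epcam and Trp63 of these markers, and their sum overlapped (794 to 1403 against 674 to 1268). Of 4 tested nerve and Schwann cell markers 2 had limbs apart in opposite directions, the neurotrophin receptor Ngfr (367 to 409 against 176 to 262) and the neurofilament Nefm (64.7 to 77.8 against 104 to 160), while the sum overlapped (1178 to 1263 against 902 to 1233). The 4 erythroid markers on the A array summed to 28000 to 30750 against 31420 to 34870, and 1 of them, the embryonic globin Hbb-y, had limbs apart. For mesenchyme (6 tested), endothelium (5) and macrophages (3), 0 markers had limbs apart on the A array, and the sums overlapped (11290 to 12310 against 9989 to 12480, 1855 to 1950 against 1715 to 1894, and 1116 to 1158 against 1005 to 1194). By limma 0 markers of these cell type lists passed on either array. An unadjusted p under 0.05 was reached by 3 cartilage, 2 tendon, 3 ectoderm, 2 erythroid and 2 nerve markers of the A array and by 1 tendon marker of the B array. Of all named genes tested, 5.84% (A) and 5.87% (B) reached it. RNA quality was read from Gapdh, as the log2 ratio of its 3' control probe set over its 5' one. On the A array this ranged from -0.239 to -0.078 in forelimb, and in hindlimb from -0.299 to -0.263. The beta-actin ratio overlapped (0.118 to 0.261 against 0.222 to 0.27). On the B array both ratios overlapped, that of Gapdh with -0.253 to -0.073 in forelimb against -0.173 to -0.113 in hindlimb. For beta-actin the B array gave 0.238 to 0.313 against 0.208 to 0.32. The part of cell makeup and of RNA quality in the differences of the nuclear factor I genes was not tested. In whole autopods, fewer cells of a type and less RNA per cell cannot be told apart.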

How the data were processed

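Samples were grouped by limb from their titles and tissue labels. The deposited values are MAS5.0 intensities on a linear scale, per the labels (not stated for forelimb 11 on the A array), which the authors had scaled to 1 trimmed mean per design (350.1 for A and 70.01 for B, from the values). For the software version and the detection calls, the sources used here give nothing. Each array was rescaled to a 2% trimmed mean of 500 (factors 1.43 and 7.14), values were taken as log2(signal + 32), which understates changes of dim probe sets, and control probe sets were left out. After scaling, 65.5% to 68.1% of A and 72.7% to 75.5% of B probe sets had a signal of at least 100. Limma 3.58.1 in R 4.3.3 was fitted to all tested probe sets of a design, with a variance trend in eBayes, two-sided tests, Benjamini-Hochberg adjustment and a threshold of 0.05, and its script was tested on simulated data. Precision is limited by the number of arrays, with a median standard error of 0.16 (A) and 0.23 (B). Symbols came from the platform annotation, updated through gene identifiers with the RefSeq table of GRCm38.p6 (20364 of 20393 single-symbol probe sets found for A, 14499 of 14674 for B). Start-site windows are from RefSeq. Python 3.11.15 and matplotlib 3.10.9 drew the figures.

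The members, lists and tests were chosen with earlier results of these data known. By rule every family probe set was accounted for, the 5 most and 3 least alike genes per design were named, and from each list the 3 genes of smallest p and any past the threshold. Alternatives left out each sample in turn, blocked consecutive sample numbers, weighted arrays, dropped the variance trend, used quantile normalization or the deposited scale, set the filter to 200 or none, and took pseudocounts of 1 or 100.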

Additional observations from a re-analysis of the deposited data

How the results depend on the processing

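On the A array 1 nuclear factor I probe set passed; 3 passed with array weights, 0 with no filter and 0 without the trend in the variance prior, and 0 to 1 on leaving out each sample. Over all probe sets of that array, 5 passed, against 14 with array weights, 8 with the block of consecutive sample numbers and 1 with no filter, and 3 to 9 on leaving out each sample. On the B array 0 family probe sets passed in every setting run. Over all its probe sets 2 passed, against 4 with that replicate block, 1 with no filter, 0 without the trend, and 1 to 4 on leaving out each sample; of the 3 calls on values as deposited 2 were lower in hindlimb, against 1 of the 2. The labels do not say that consecutive numbers share a litter or day, and samples so paired deviated together with correlations of 0.076 to 0.208 (A) and 0.002 to 0.048 (B); the block kept the family counts at 1 and 0.

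Of 238 alternative values of single family probe sets, 220 kept their direction and side of the threshold, 7 lost the call, 2 gained one and 9 changed sign. The 7 are Nfix 1436363_a_at in the settings above (adjusted p = 0.0515 to 0.15), and the 2 are the other tested Nfix probe sets with array weights (-1.17 and -1.04). The sign changed for Nfib 1416293_at with array weights (-0.104) and without forelimb 11, forelimb 13 or hindlimb 14 (-0.123 to 0.191 over the 6 samples left out). It changed for Nfib 1438244_at with array weights (0.008) and without hindlimb 14 (-0.07 to 0.018). It changed for Nfia 1446990_at without forelimb 11 or hindlimb 12 (-0.741 to 0.039), and for Nfib 1434101_at without hindlimb 14 (-0.29 to 0.017). The causes were not tested. One Nfic probe set on each array has no value in 1 setting, as it fell below the filter there. With 3 samples per limb, no detection calls and probe sets of unknown target, dim probe sets allow no statement.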

Other observations

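The genes that lie beside the family members on their chromosomes, the 2 nearest tested protein-coding genes on each side in the RefSeq table of GRCm38.p6, were 16 genes with 18 values on the 2 arrays. Of these values 4 of 10 on the A array and 4 of 8 on the B array were lower in hindlimb, where 53.0% and 50.45% of all named genes tested lay below 0. By limma 0 passed and 0 had an unadjusted p under 0.05, against 5.84% and 5.87% of all named genes. Limbs were apart with hindlimb lower for 1 and 0 (6.85% and 6.26% of all named genes), and with hindlimb higher for 2 and 1 (5.44% and 5.60%). The neighbours of Nfix, which were Trmt1, a tRNA methyltransferase (-0.15), Lyl1, a blood cell factor (-0.06), Gadd45gip1 (0.16) and Calr, the chaperone calreticulin (0.01), all had overlapping limbs. Beside Nfib, Mpdz (0.27 on the A array) and Frem1, a basement membrane protein (0.20 on the B array), were higher in hindlimb without overlap, though neither passed in limma. Beside Nfic, Ncln (-0.24) was lower without overlap, and Fzr1, a cell cycle regulator (0.01), overlapped. Beside Nfia, Patj was higher without overlap on the A array (0.24) and overlapped on the B array (0.47), and the lowest value of all, that of Cyp2j11 (-1.31 ± 0.62, SE), had overlapping limbs.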
